A study of Mus musculus with 6 samples.

Results

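Of the 22040 genes listed for mouse renal cortex after ischemia and reperfusion or sham treatment, 10 were taken up here by their symbols: the secreted signals Tgfb1, Tgfb2, Tgfb3, Gdf15, Inhba and Bmp7, the receptors Tgfbr1 and Tgfbr2, and the matricellular genes Ctgf (Ccn2) and Cyr61 (Ccn1). All 10 were found and all 10 passed the filter on low counts. The tissue came from wild-type C57BL/6 mice, an inbred strain. The injured group, IR24h, holds 3 libraries made 24 h after reperfusion, following a 30 min clamp of both renal pedicles, a model of acute kidney injury. The sham group holds 3 libraries, and details of the sham operation, age, sex and the number of mice behind each library were not given in the sources used here. P-values therefore measure the spread between libraries, which may in part be technical.

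Ligands of the TGF-beta superfamily are secreted as dimers and bind pairs of type I and type II serine/threonine kinase receptors, which phosphorylate Smad transcription factors. TGF-beta and activin act mainly through Smad2 and Smad3, and bone morphogenetic proteins (BMPs) through Smad1, Smad5 and Smad8. In the kidney TGF-beta1 is known as a driver of matrix deposition and BMP7 as a signal of nephron formation that opposes it. YAP and TAZ are transcriptional coactivators that bind TEAD factors when the Hippo kinases are inactive, and Ctgf and Cyr61 are widely used readouts of their activity, although Ctgf is a target of TGF-beta as well.

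In the injured cortex Cyr61 was 5.16-fold, Gdf15 4.06-fold and Tgfb1 3.00-fold higher, and Inhba was raised above a sham level at or near 0, whereas Bmp7 was 2.75-fold lower. Thus 4 of the 10 genes rose and 1 fell at an adjusted p under 0.05 (edgeR quasi-likelihood test, Benjamini-Hochberg adjustment over 13609 genes). Over all genes tested, 8.65% were called higher and 7.62% lower, so that 53.2% of calls were higher, against 39.4% when libraries were scaled by their totals alone. Tgfb2, Tgfb3, Tgfbr1, Tgfbr2 and Ctgf were not called. The median log2 fold change was 0.68 for the 10 genes and 0.05 for all genes tested. Leaving out 1 sham library lowered the calls over all genes from 1177 higher and 1037 lower to 246 to 292 higher and 196 to 237 lower. Calls lost in those fits are to be read beside these counts. Levels are given in CPM, read counts brought to a common library size after TMM scaling, which evens out differences in RNA composition. Fold changes are IR24h over sham.

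**Figure D1:**
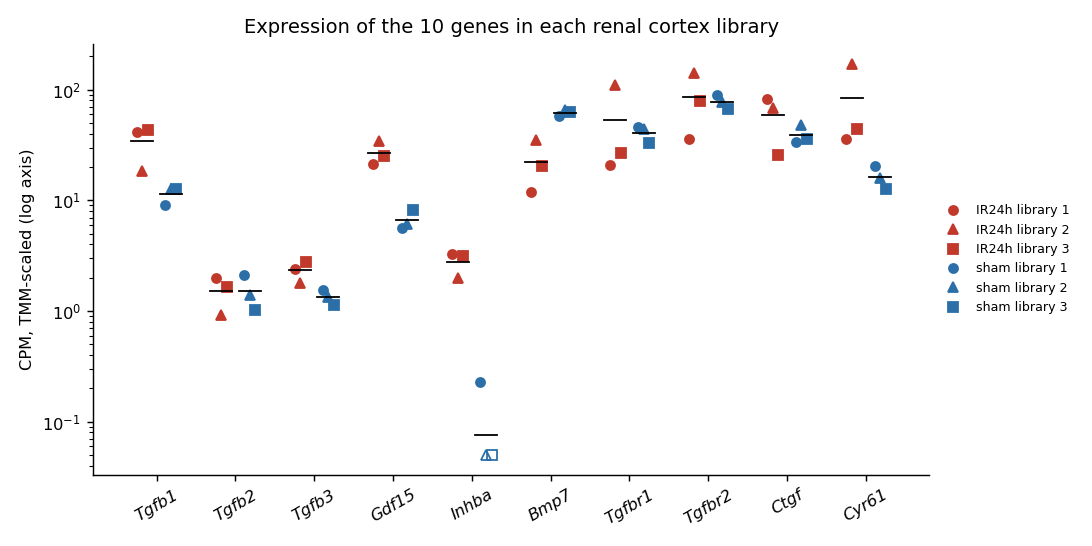
CPM of each of the 10 genes (log axis) in the 3 IR24h libraries (red) and the 3 sham libraries (blue), with the group mean as a bar; open symbols at the foot are libraries with 0 counts. Gdf15, Inhba, Tgfb1, Tgfb3 and Cyr61 lie higher in all IR24h libraries than in any sham library, Bmp7 lies lower, and Cyr61 and Tgfbr1 are far higher in IR24h library 2 (172 and 111 CPM) than in IR24h libraries 1 and 3.

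The DNA just before the start sites of the 4 genes that rose is shown because these genes moved in one direction. The sequences, the last 250 bases before the RefSeq transcript start (GRCm38.p6, read 5′ to 3′ on the strand of the gene), are chr7:25686752-25687001 (plus strand) for Tgfb1, chr8:70632457-70632706 (minus strand) for Gdf15, chr13:16011601-16011850 (plus strand) for Inhba and chr3:145649986-145650235 (minus strand) for Cyr61. Capitals mark matches, on either strand, to 6 motifs: GGAATG for TEAD factors, TGANTCA for AP-1, CAGAC for Smads, GGGCGG for Sp1-type factors (GC box), TGACGTCA for CREB and ATF factors, and TATAAA, the TATA box core.
Tgfb1: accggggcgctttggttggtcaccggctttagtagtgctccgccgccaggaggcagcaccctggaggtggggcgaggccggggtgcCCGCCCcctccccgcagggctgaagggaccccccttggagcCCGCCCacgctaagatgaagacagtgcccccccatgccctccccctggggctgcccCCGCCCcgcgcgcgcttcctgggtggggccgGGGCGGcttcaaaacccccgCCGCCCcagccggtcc
Gdf15: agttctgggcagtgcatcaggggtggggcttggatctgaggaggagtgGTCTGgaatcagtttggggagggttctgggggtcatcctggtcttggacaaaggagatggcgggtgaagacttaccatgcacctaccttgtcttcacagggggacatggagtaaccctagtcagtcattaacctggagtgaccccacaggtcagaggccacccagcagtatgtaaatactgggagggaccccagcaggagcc
Inhba: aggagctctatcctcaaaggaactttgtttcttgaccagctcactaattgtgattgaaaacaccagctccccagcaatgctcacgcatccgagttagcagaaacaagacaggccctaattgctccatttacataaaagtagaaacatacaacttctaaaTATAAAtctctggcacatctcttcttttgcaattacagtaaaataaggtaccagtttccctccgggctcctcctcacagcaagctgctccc
Cyr61: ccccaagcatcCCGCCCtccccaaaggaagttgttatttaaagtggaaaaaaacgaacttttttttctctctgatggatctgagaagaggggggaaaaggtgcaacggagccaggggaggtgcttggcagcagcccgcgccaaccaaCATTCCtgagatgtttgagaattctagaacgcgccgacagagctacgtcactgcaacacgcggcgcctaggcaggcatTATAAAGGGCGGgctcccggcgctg
The Cyr61 window held a match to the TEAD letters as CATTCC from −103 to −98, counted from the start site, and, closer to the start, a TATAAA from −25 to −20 beside a GC box from −19 to −14. Of 32851 mouse promoter windows of the same length, 12.6% hold the TEAD letters, 12.4% TATAAA, 32.7% the GC box and 42.2% CAGAC. The Tgfb1 window held 5 GC boxes, that of Gdf15 a CAGAC match read as GTCTG at −202, and that of Inhba a TATAAA at −91. None of the 4 windows held the AP-1 letters, present in 6.75% of windows, or TGACGTCA, present in 1.55%. RefSeq windows were matched for 7 of the 10 genes; Tgfb3, Bmp7 and Ctgf were not matched.

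Tgfb1 (ENSMUSG00000002603, chromosome 7 from 25687002 to 25705077, GRCm38) encodes TGF-beta1. It had 41.8, 18.6 and 43.1 CPM in IR24h libraries 1, 2 and 3, against 9.02, 12.7 and 12.7 CPM in sham libraries 1, 2 and 3. All 3 injured libraries were above all sham libraries, with IR24h library 2 the closest to them. The means were 34.5 ± 13.8 CPM in IR24h and 11.5 ± 2.13 CPM in sham (SD, n = 3 each), a log2 fold change of 1.58 ± 0.38 (SE, adjusted p = 0.0303). The call was lost without IR24h library 1 or 3 (adjusted p = 0.0780 and 0.0768), without sham library 1, 2 or 3 (0.134, 0.113 and 0.105) and under scaling by totals alone (1.001, adjusted p = 0.145). With IR24h library 2 as the only injured library the log2 fold change was 0.71. Of the macrophage and monocyte marker rows, whose cells are a known source of TGF-beta1, 4 of 10 rose. Their summed level was 186, 106 and 275 CPM in IR24h libraries 1 to 3, and 86.6 to 93.9 CPM in sham. Tgfb1 had the same order over the injured libraries. So did the summed markers of smooth muscle, endothelium, proximal tubule, thick ascending limb and collecting duct principal cells. Markers of platelets, also a known source of TGF-beta1, summed to 3.07 to 19.5 CPM in IR24h and 7.08 to 11.2 CPM in sham, with Gp9 under 0.1 CPM in each library. The part of these cells in the Tgfb1 values was not tested.

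The other TGF-beta isoforms were rare. Tgfb2 (ENSMUSG00000039239, chromosome 1, 186622792 to 186705989) had 1.99, 0.920 and 1.66 CPM in IR24h and 2.11, 1.39 and 1.02 CPM in sham, from 14 to 37 counts a library. These groups overlapped (log2 fold change −0.02 ± 0.49, adjusted p = 0.979). Tgfb3 (ENSMUSG00000021253, chromosome 12, 86056745 to 86079041) had 2.41, 1.79 and 2.80 CPM in IR24h and 1.54, 1.35 and 1.13 CPM in sham. Its injured libraries were all above the sham libraries, yet it was not called (0.79 ± 0.40, adjusted p = 0.203). Its values rest on 17 to 35 counts a library. Parts of the exons lie opposite other annotated genes, 2.14% for Tgfb2 and 12.4% for Tgfb3, and whether counting kept the strand was not given in the sources used here.

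Gdf15 (ENSMUSG00000038508, chromosome 8, 70629393 to 70632456) encodes a stress-induced hormone that acts on the hindbrain through GFRAL. Its levels were 21.3, 34.4 and 25.3 CPM in IR24h and 5.60, 6.15 and 8.20 CPM in sham. The injured libraries lay well above the sham libraries and close to one another. The means were 27.0 ± 6.72 CPM in IR24h and 6.65 ± 1.37 CPM in sham (log2 fold change 2.02 ± 0.31, adjusted p = 0.00702), and the fold change with IR24h library 2 as the only injured library was 2.38. The call was lost without sham library 1 or 2 (adjusted p = 0.0543 and 0.0553) and under scaling by totals alone (1.66, adjusted p = 0.0823). Gfral itself had 0 counts in all 6 libraries.

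Inhba (ENSMUSG00000041324, chromosome 13, 16011851 to 16031621) encodes the beta A chain of activin A and of inhibin A. It had 23, 39 and 36 counts in IR24h libraries 1 to 3, against 4, 0 and 0 counts in sham libraries 1 to 3. Every injured library held the transcript, at 3.27, 1.99 and 3.15 CPM, while the sham libraries had 0.228 CPM in library 1 and none in libraries 2 and 3, where a count of 0 allows up to 0.144 and 0.162 CPM. Pooled over the libraries the ratio of IR24h to sham was 36.6, with a 95% exact counting interval of 13.9 to 137 that covers counting error only. In the edgeR fit the log2 fold change was 5.13 ± 0.98 (adjusted p = 0.0152). It was 8.43 without sham library 1, which held the sham counts, and the call was lost without sham library 2 or 3 (adjusted p = 0.0740 and 0.0737). Summed fibroblast and pericyte markers were 2183, 368 and 855 CPM in IR24h libraries 1 to 3, the same order as Inhba, and 109 to 127 CPM in sham, with 6 of 8 higher. Summed platelet markers, at 19.5, 3.07 and 15.8 CPM in IR24h libraries 1 to 3, had that order too. The part of any of these cells in the Inhba values was not tested.

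Bmp7 (ENSMUSG00000008999, chromosome 2, 172868012 to 172940321) was the member that fell. It had 11.9, 34.8 and 20.6 CPM in IR24h and 57.6, 65.3 and 63.2 CPM in sham. The sham libraries agreed closely, and all injured libraries were below them, IR24h library 2 the least so. Means were 22.5 ± 11.5 CPM in IR24h and 62.0 ± 3.97 CPM in sham (log2 fold change −1.46 ± 0.39, adjusted p = 0.0436). In the kidney Bmp7 is known from podocytes and from the distal nephron and collecting duct. Summed podocyte markers were 121, 273 and 151 CPM in IR24h libraries 1 to 3 and 335 to 410 CPM in sham, with 1 of 7 lower and 6 not called, and thus had the same order over the injured libraries as Bmp7. Principal cell markers summed to 280, 159 and 684 CPM in IR24h libraries 1 to 3 and 434 to 534 CPM in sham, and thick ascending limb markers to 3310, 1596 and 5044 CPM in IR24h libraries 1 to 3 and 3090 to 3881 CPM in sham. Both were lowest in IR24h library 2, where Bmp7 was the highest of the injured libraries. In whole cortex fewer cells of a type and less RNA per cell cannot be told apart, and the part of these cells in the Bmp7 values was not tested. The call was lost without IR24h library 1 or 3 (adjusted p = 0.0632 and 0.111), without sham library 1, 2 or 3 (0.122, 0.146 and 0.146) and under scaling by totals alone (−1.74, adjusted p = 0.128).

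Neither TGF-beta receptor gene was called, and the injured libraries lay on both sides of sham. Tgfbr1 (ENSMUSG00000007613, chromosome 4, 47353222 to 47414931), the type I receptor of TGF-beta, had 20.7, 111 and 26.7 CPM in IR24h and 46.1, 43.8 and 33.1 CPM in sham. IR24h library 2 was above every sham library, and IR24h libraries 1 and 3 were below every one. The log2 fold change was 0.37 ± 0.61 (adjusted p = 0.702). It was −0.79 without IR24h library 2 (adjusted p = 0.0292) and 1.45 with that library as the only injured one (adjusted p = 0.00365), so its direction rests on 1 library. Of all genes tested, 48.3% were called without IR24h library 2 and 38.1% with it as the only injured library. Tgfbr2 (ENSMUSG00000032440, chromosome 9, 116084293 to 116175360), the type II receptor, had 35.9, 143 and 79.7 CPM in IR24h and 90.0, 77.3 and 66.5 CPM in sham. It was likewise highest in IR24h library 2 and lowest in IR24h library 1 (0.15 ± 0.47, adjusted p = 0.845). Its log2 fold change was −0.43 without IR24h library 2 (adjusted p = 0.330), −0.10 under scaling by totals alone and 0.89 with IR24h library 2 alone.

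Cyr61 (ENSMUSG00000028195, chromosome 3, 145646976 to 145649981) and Ctgf (ENSMUSG00000019997, chromosome 10, 24595442 to 24598683) encode secreted matricellular proteins of the CCN family. Cyr61 had 35.7, 172 and 44.6 CPM in IR24h and 20.4, 16.1 and 12.6 CPM in sham. All injured libraries were above the sham libraries, with IR24h library 2 far above the rest. Means were 84.2 ± 76.5 CPM in IR24h and 16.4 ± 3.95 CPM in sham (log2 fold change 2.37 ± 0.63, adjusted p = 0.0416). Without IR24h library 2 the value was 1.29 (adjusted p = 0.00666). The call was lost without IR24h library 3 (adjusted p = 0.0509), without sham library 1, 2 or 3 (0.117, 0.148 and 0.154), with limma-voom (0.0574) and under scaling by totals alone (2.18, adjusted p = 0.138).

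Ctgf was not called. It had 82.1, 68.3 and 25.9 CPM in IR24h and 34.0, 47.9 and 36.1 CPM in sham. IR24h libraries 1 and 2 were above and IR24h library 3 below all sham libraries. The log2 fold change was 0.58 ± 0.43 (adjusted p = 0.374), and 0.81 with IR24h library 2 as the only injured library. Of the exon bases of Ctgf, 23.2% lie opposite the noncoding gene Gm15270.

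**Figure D2:**
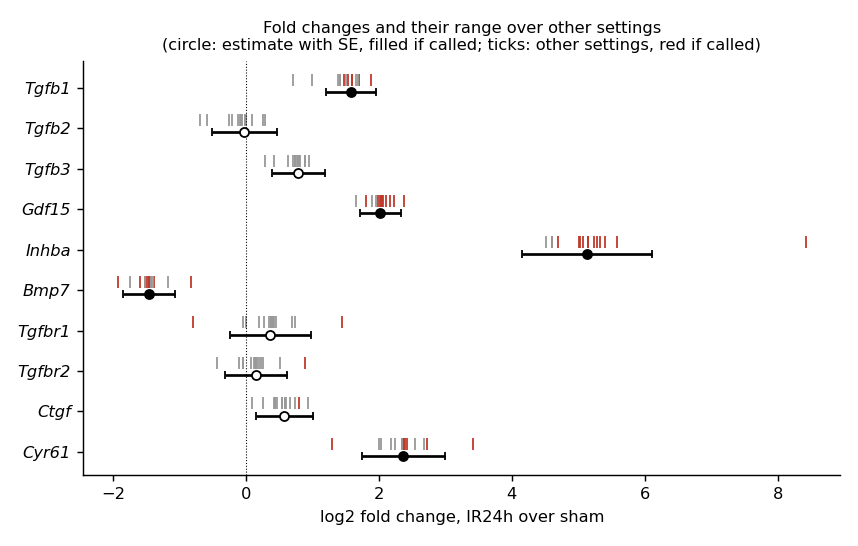
Log2 fold change of each gene, IR24h over sham (circles with SE, filled where called), with ticks for each of the other settings, red where called. Inhba, Gdf15, Cyr61 and Tgfb1 stay above 0 and Bmp7 below 0 under each setting run. Tgfbr1 has values on both sides, −0.79 without IR24h library 2 and 1.45 with it as the only injured library. Calls in that last setting rest on the spread of the sham libraries.

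With log2 CPM as the value, the 2-sided exact permutation test (20 assignments of the libraries) gave p = 0.1 for Tgfb1, Tgfb3, Gdf15, Inhba, Bmp7 and Cyr61, the smallest value this design allows. All IR24h libraries were above all sham libraries for 5 of the 10 genes and below them for 1, which held for 19.9% and 21.7% of all genes tested, or 41.5% in either direction. Along the chromosome, the 4 tested neighbours of each of the 10 genes held at most 1 called gene.

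The injured libraries differed among themselves in a way that divided the 10 genes. Relative to the sham mean, IR24h library 2 was the highest injured library for Tgfbr1 (1.45 on the log2 scale, against −0.97 and −0.61 in IR24h libraries 1 and 3), Cyr61 (3.42, against 1.15 and 1.47), Tgfbr2 (0.89, against −1.10 and 0.04), Bmp7 (−0.83, against −2.37 and −1.59) and Gdf15 (2.38, against 1.69 and 1.94). It was the lowest injured library for Tgfb1 (0.71, against 1.88 and 1.92), Tgfb2, Tgfb3 and Inhba. IR24h library 2 had the lowest share of mitochondrial counts among the injured libraries, 26.2%, against 68.9% and 49.2% in IR24h libraries 1 and 3 and 13.1 to 14.2% in sham. Library totals were 12877237 to 15998975 counts in IR24h and 14339985 to 17061844 in sham, of which 4008001 to 11804440 in IR24h and 12455991 to 14639820 in sham were not mitochondrial. Across genes tested, log2 CPM of IR24h library 2 correlated with the other injured libraries at 0.812 and 0.829 and with sham at 0.835 to 0.844. Kidney markers were present in all libraries, those of the proximal tubule at a summed 7867 to 15379 CPM in IR24h and 19862 to 24611 CPM in sham.

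**Figure D3:**
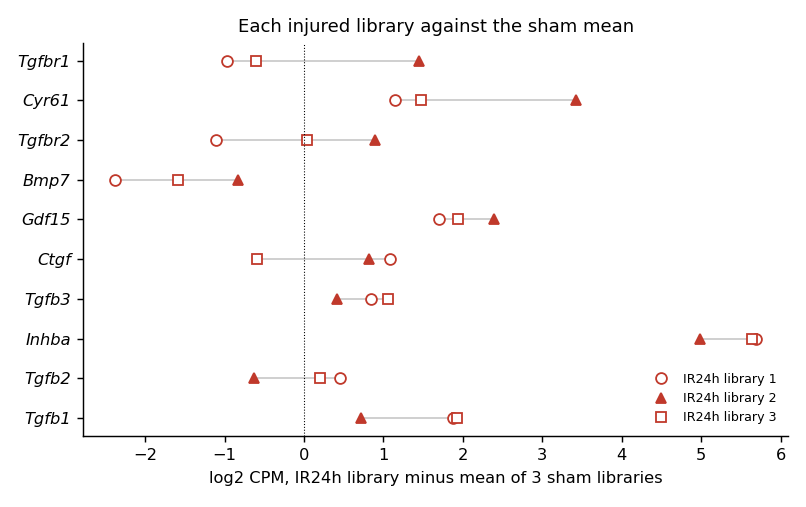
Log2 CPM of each IR24h library minus the mean of the 3 sham libraries, for the 10 genes, ordered by how far IR24h library 2 (filled triangle) stands above IR24h libraries 1 and 3. The 2 receptors and Cyr61 are at the top, where library 2 is highest, and Tgfb1 is at the foot, where it is lowest.

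Ratios between genes of one library do not depend on how libraries are scaled. Per length (FPKM, counts scaled for gene length and depth), the ratio of Tgfb1 to Bmp7 was 2.85, 0.435 and 1.70 in IR24h libraries 1 to 3 and 0.128, 0.158 and 0.164 in sham libraries 1 to 3. Each injured library thus had a higher ratio than each sham library, and Tgfb1 exceeded Bmp7 in IR24h libraries 1 and 3 (mean log2 difference 3.11, exact permutation p = 0.1, the smallest possible). That separation and its p were already fixed by the CPM values. All injured libraries were above all sham libraries for Tgfb1 and below them for Bmp7. The ratio of Cyr61 to Ctgf was 1.02, 5.95 and 4.06 in IR24h and 1.42, 0.789 and 0.820 in sham. It was above all sham values in IR24h libraries 2 and 3 and within them in IR24h library 1 (exact permutation p = 0.2). The ratio of Tgfbr2 to Tgfbr1 was 1.56, 1.16 and 2.69 in IR24h and 1.76, 1.59 and 1.81 in sham (exact permutation p = 0.9). These 3 ratios were chosen after the values were seen, and the smallest adjusted value over the 3 is 0.3.

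**Figure D4:**
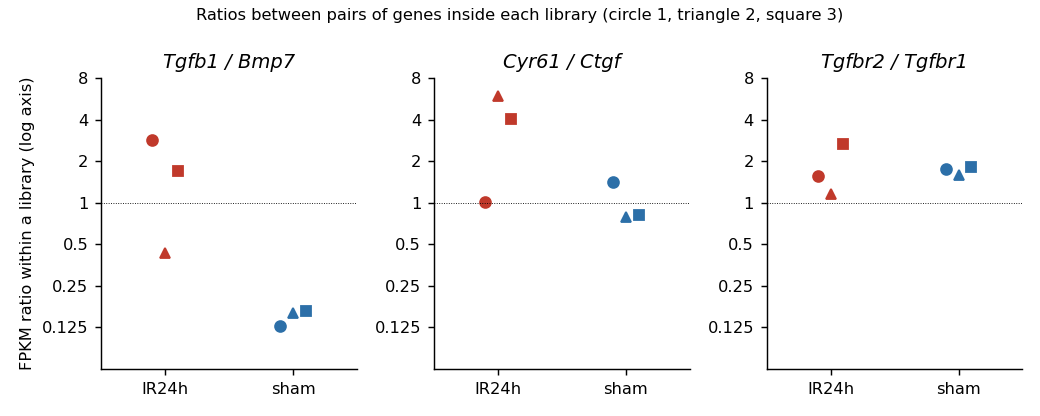
FPKM ratios inside each library (log axis) for Tgfb1 to Bmp7, Cyr61 to Ctgf and Tgfbr2 to Tgfbr1, IR24h in red and sham in blue. The ratio of Tgfb1 to Bmp7 is under 0.2 in sham and between 0.435 and 2.85 in IR24h, whereas that of the receptors overlaps between the groups.

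The order of levels differed between the groups. Within sham, Bmp7 was the highest of the 10 genes at 14.7 ± 0.936 FPKM, above the range of each other member. Ctgf (9.15 ± 1.89 FPKM), Cyr61 (9.0 ± 2.43) and Tgfbr2 (8.52 ± 1.56) followed, with overlapping ranges, then Tgfbr1 (4.98 ± 1.01). Gdf15 (2.50 ± 0.418 FPKM) and Tgfb1 (2.22 ± 0.378) overlapped in sham, and Tgfb3, Tgfb2 and Inhba were each below 0.52 FPKM. Within IR24h, Cyr61 had the highest mean, 44.4 ± 52.2 FPKM, but the ranges of neighbours in the order overlapped from Cyr61 down to Bmp7, and only Tgfb3, Inhba and Tgfb2 stood apart at the low end. Inhba, the lowest of the 10 in sham, lay above Tgfb2 in IR24h (0.311 ± 0.0638 and 0.134 ± 0.0206 FPKM).

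Around these genes, 10 lists covering the pathways held 162 genes, of which 131 passed the filter on low counts, 34 rose and 2 fell, against 8.65% higher and 7.62% lower over all genes tested. Of 33 superfamily ligands only 16 passed, and of these 5 rose and 1 fell (median log2 fold change 0.86). Besides Tgfb1, Gdf15, Inhba and Bmp7 they include Bmp4, a BMP of kidney mesenchyme, at 80.7 ± 45.6 CPM in IR24h and 19.5 ± 3.59 CPM in sham (2.05 ± 0.48), and Gdf11, a ligand close to myostatin, at 16.9 ± 10.8 CPM in IR24h and 3.11 ± 1.35 CPM in sham (2.43 ± 0.57). The 17 ligands not tested had at most 28 counts over all libraries. Both calls were lost without IR24h library 1 or 3 or any 1 sham library (adjusted p = 0.0620 to 0.123).

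None of the 12 receptors tested was called by edgeR, with 0 higher and 2 lower at an unadjusted p under 0.05, 0 higher and 1 lower by DESeq2 and none by limma-voom. Their median log2 fold change was 0.14. Over all genes, 34.1% passed at an unadjusted p under 0.05, 27.8% by DESeq2 and 16.2% by limma-voom. Without IR24h library 2, 3 receptors were called higher and 3 lower, a share of 12 close to the 48.3% of all genes called in that fit. Among 16 Smads and Smad regulators, 1 rose, Tgif1, a corepressor of Smad2 and Smad3 (51.1 ± 5.11 CPM in IR24h and 9.48 ± 3.205 CPM in sham, 2.43 ± 0.31, adjusted p = 0.00416), and 15 were not called. The list had 3 higher and 2 lower by DESeq2 and 3 higher and 5 lower without IR24h library 2. These shares are near the 27.8% and 48.3% of all genes called in those fits. Smad7, the inhibitory Smad that TGF-beta induces, had 8.24, 19.99 and 10.5 CPM in IR24h and 32.0, 27.2 and 24.5 CPM in sham. It lay below sham in each injured library but was not called (−1.10 ± 0.37, adjusted p = 0.0803), and was called lower without IR24h library 2 (−1.57, adjusted p = 0.00236) and by DESeq2 (adjusted p = 0.0325).

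Of 11 genes that store or activate latent TGF-beta, 4 rose and 7 were not called (median 1.45), against 8.65% higher over all genes. Itgb6, the integrin chain that activates latent TGF-beta on epithelium, had 147 ± 54.2 CPM in IR24h and 53.7 ± 5.17 CPM in sham (1.45 ± 0.31). Lrrc32 (GARP), which tethers latent TGF-beta to cell surfaces, had 41.4 ± 22.3 CPM in IR24h and 8.61 ± 1.71 CPM in sham (2.26 ± 0.46). Fbn1, the microfibril protein fibrillin-1, had 52.0 ± 53.9 CPM in IR24h and 6.32 ± 1.56 CPM in sham (3.03 ± 0.75), with 20.1% of its exon bases opposite Gm9913. Without sham library 1, 2 or 3 none of the 4 was called. Those fits called 246 to 292 of all genes higher, against 1177 with all libraries.

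Secreted antagonists and modulators had 5 higher, 1 lower and 7 uncalled genes of 13 tested (median 1.93). The shares over all genes tested were 8.65% higher and 7.62% lower. Fst, follistatin, which binds activin, had 16.3, 7.31 and 14.4 CPM in IR24h and 0.228, 0.144 and 1.51 CPM in sham (4.32 ± 0.85, adjusted p = 0.0164), so that the activin gene Inhba and its inhibitor both rose. The gene length that counts and FPKM imply together differed between the groups for Fst and for Kcp. Fstl3, a relative of follistatin, had 23.8 ± 11.2 CPM in IR24h and 5.89 ± 1.37 CPM in sham, but 47.3% of its exon bases lie opposite Prss57. Kcp, which strengthens BMP7 signalling, fell to 9.44 ± 2.34 CPM in IR24h, against 20.1 ± 1.87 CPM in sham (−1.09 ± 0.29, adjusted p = 0.0404). The Kcp call was lost with upper-quartile scaling (adjusted p = 0.0648), without IR24h library 1 or 3 (0.0606 and 0.0578) and without sham library 1, 2 or 3 (0.122, 0.162 and 0.156). Sostdc1, an antagonist of BMP7 in the tubule, was not called (33.8 ± 17.2 CPM in IR24h and 54.5 ± 8.78 CPM in sham). Without 1 sham library, 0 or 1 of these genes was called higher, in fits that called 246 to 292 of all genes higher.

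Differences between the lists of target genes were not tested. Of 20 genes known to be induced by TGF-beta, 15 rose, 0 fell and 5 were not called (median 2.39). The shares over all genes tested were 8.65% higher and 7.62% lower. DESeq2 called 16 higher and 1 lower and limma-voom 13 higher and 0 lower, against 27.8% and 16.2% of all genes. For the risen genes Acta2 and Junb the implied gene length differed between the groups. Of the exon bases of Tagln, which also rose, 67.9% lie opposite Pcsk7 and Gm48529. Timp1, an inhibitor of matrix proteases, had 31.6 ± 16.01 CPM in IR24h and 0.254 ± 0.291 CPM in sham (6.94 ± 0.91), Postn, the matricellular protein periostin, 13.4 ± 9.33 CPM in IR24h and 0.401 ± 0.104 CPM in sham (5.02 ± 0.62), and Col1a1, a collagen I chain, 259 ± 188 CPM in IR24h and 16.2 ± 2.78 CPM in sham (3.995 ± 0.63). Of the 15 risen genes, 6 are also on the marker lists of fibroblasts or smooth muscle, and of the other 14 list genes 9 rose. Summed fibroblast and pericyte markers were 368 to 2183 CPM in IR24h and 109 to 127 CPM in sham, with 6 of 8 higher, and their part in the list was not tested. The count of risen targets was 5 to 7 without 1 sham library and 9 without IR24h library 3. The counts for all genes in those fits were 246 to 292 and 813 higher, against 1177 with all libraries. None of 9 BMP target genes was called by edgeR (median −0.72), with 0 higher and 3 lower at an unadjusted p under 0.05, 0 higher and 2 lower by DESeq2 and none by limma-voom, and 3 of 9 is near the 34.1% of all genes at that unadjusted p. Without IR24h library 2, 1 BMP target was called higher and 4 lower, a share of 9 near the 48.3% of all genes called in that fit. Id1, the classical BMP target, had 22.6 ± 8.36 CPM in IR24h and 20.9 ± 4.33 CPM in sham (0.12 ± 0.33, adjusted p = 0.828).

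The list of YAP and TAZ target genes had 21 tested rows, with Lats2 entered under both of its identifiers. Against 8.65% higher and 7.62% lower over all genes tested, 4 rose, 0 fell and 17 were not called (median 0.63). Besides Cyr61 these were Ankrd1, a muscle ankyrin protein and a standard YAP readout, with 4.12, 9.15 and 7.25 CPM in IR24h and 0.571, 0.625 and 0.539 CPM in sham (3.56 ± 0.44, adjusted p = 0.00364), Myof, the membrane repair protein myoferlin, with 35.4, 202 and 56.5 CPM in IR24h and 16.7, 25.4 and 14.3 CPM in sham (2.38 ± 0.66), and Gadd45b, a stress-response gene, with 11.8 ± 6.50 CPM in IR24h and 2.40 ± 0.524 CPM in sham (2.29 ± 0.52). Like Cyr61, Ankrd1 and Myof were highest in IR24h library 2, whereas Gadd45b was lowest there among the injured libraries. Only 1 of the 21 was called without any 1 of the sham libraries, without IR24h library 3 or with limma-voom, in each case as higher. Without IR24h library 2, 7 were higher and 3 lower, a share near the 48.3% of all genes called in that fit. For Ankrd1 the implied gene length differed between the groups.

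The coactivators themselves were not called. Yap1 had 88.5 ± 21.3 CPM in IR24h and 66.3 ± 8.07 CPM in sham (0.42 ± 0.27, adjusted p = 0.306), and Wwtr1, which encodes TAZ, had 78.9 ± 21.2 CPM in IR24h and 64.9 ± 3.82 CPM in sham (0.28 ± 0.27, adjusted p = 0.502). Of 25 tested rows of Hippo pathway genes 2 were called higher, a share near the 8.65% of all genes. Without IR24h library 2 the list had 5 higher and 8 lower, a share near the 48.3% of all genes called in that fit. Wwc1, the upstream scaffold KIBRA, had 359 ± 53.8 CPM in IR24h and 188 ± 9.99 CPM in sham (0.93 ± 0.25, adjusted p = 0.0419). The Wwc1 call was lost under totals alone (0.47, adjusted p = 0.528), with no count filter (0.0662), without IR24h library 1 (0.0730) and without sham library 1, 2 or 3 (0.199, 0.197 and 0.150). Lats1, a kinase that inactivates YAP, had 39.2 ± 15.5 CPM in IR24h and 0.694 ± 0.195 CPM in sham (5.80 ± 0.44), but its 4 tested neighbours on chromosome 10, Pcmt1, Nup43, Katna1 and Ginm1, were all called higher too, with a median of 4.91. The part of this stretch in the Lats1 value was not tested. Among the CCN genes, 3 of 6 were tested and only Cyr61 was called, with 0 called by limma-voom or under totals alone and 2 higher by DESeq2, with upper-quartile scaling, without IR24h library 2 or with that library alone.

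**Figure D5:**
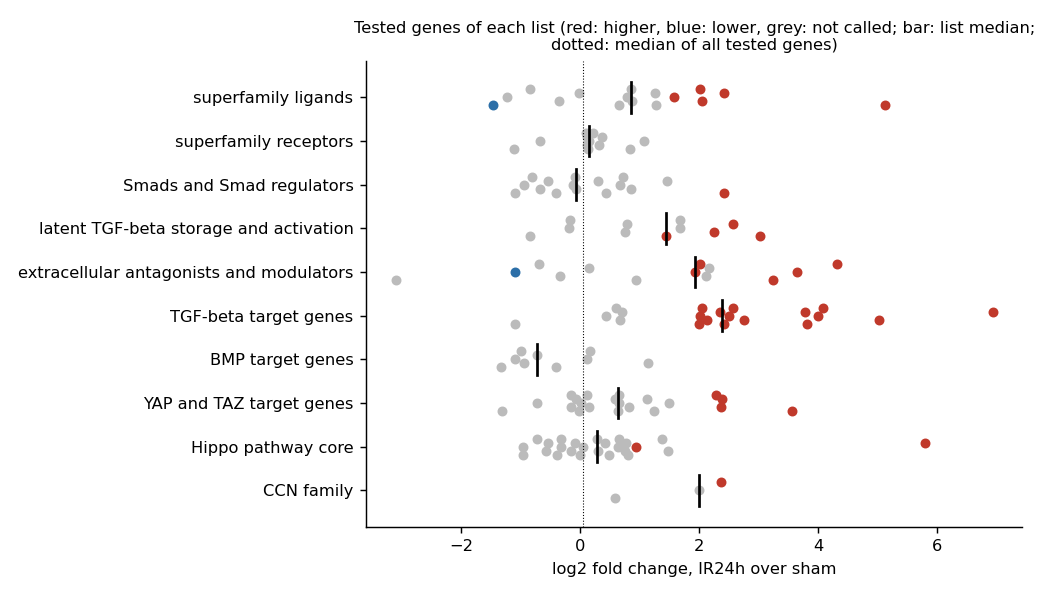
Log2 fold changes, IR24h over sham, of the tested genes in each of the 10 lists (red higher, blue lower, grey not called), with the list median as a bar and the median of all genes tested, 0.05, as a dotted line. The TGF-beta target genes have the highest median, 2.39, and the BMP target genes the lowest, −0.72.

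Genes whose profile over the 6 libraries was most like that of each member were found by the root mean square (RMS) difference of centred log2 CPM among genes averaging 10 CPM or more. Closest to Cyr61 were Hmox1, heme oxygenase 1 (RMS 0.23), and Myof (0.29), which is on the YAP and TAZ list as well. For Gdf15 they were Sytl2 and Acat3 (0.12 and 0.17), for Tgfb1 Polr2h and Nol12 (both 0.12), and for Bmp7 Spns3 and Sbk1 (0.06 and 0.08). Tgfbr1 was matched by Ipo7 and Klf3 (0.07 and 0.09), Tgfbr2 by Sdad1 and Aff1 (both 0.12), and Ctgf by Usp54 and Afdn (0.09 and 0.14). Tgfb3 lay near Ino80c and Nup85 (0.10 and 0.12) and Tgfb2 near Usp21 and Ccnd2 (0.16 and 0.21). The nearest to Inhba, Zdhhc8 and Trmt2a, were far less alike (0.75 and 0.78) and lie close together on chromosome 16 in a stretch where all 4 tested neighbours of each were called higher. With 6 libraries these distances are a description only.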

How the data were processed

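RNA-seq libraries of renal cortex, 3 IR24h and 3 sham, were grouped by their titles. CASAVA 1.8 and TopHat2 2.0.6 were named in the submitters' processing notes, with mm10 and GRCh38 as builds. Counter, annotation and strandedness were not given in the sources used here. The authors deposited raw read counts per gene, which were tested, and FPKM values, which were used for levels within a group, ratios within a library and implied gene lengths. The length implied by count and FPKM differed between the groups by over 0.01 (log2) for 14.0% of 15654 genes, but for none of the 10 members. The RNA level of a gene cancels in this length. Whether both groups were processed alike was not given in the sources used here. An effect of unlike processing on the counts would follow the groups and cannot be told apart from the injury.

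Of 22040 genes, 83 without sham values were left out. The members and lists were chosen with earlier results of these data known. Counts were tested with edgeR 4.0.16 (R 4.3.3): expression filter, TMM scaling, quasi-likelihood test, 2-sided, Benjamini-Hochberg adjustment over 13609 genes, called under 0.05. Standard errors were derived from the F statistic. The test was checked on simulated counts drawn with the same spread in both groups. That check does not cover groups of unequal spread. Alternatives used DESeq2 1.42.0, limma 3.58.1, other scalings and filters, and leaving out libraries. Log2 CPM used a prior count of 0.5. Named list genes were, for each list, up to 4 called genes with the highest and 4 with the lowest fold change and at least 5 CPM on average in the higher group, plus Smad7, Yap1, Wwtr1, Sostdc1, Fst, Id1 and Ankrd1; 1 gene that the rule names is not reported here. Other genes named were chosen after their values were seen. Intervals cover counting error only. Coordinates are from GENCODE M21 (GRCm38, the assembly of mm10) and promoter sequences from RefSeq (GRCm38.p6). Figures were made with Python 3.11.15 and matplotlib 3.10.9.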

Additional observations from a re-analysis of the deposited data

How the results depend on the processing

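Under the 15 alternatives, Tgfb1, Gdf15, Inhba and Cyr61 stayed higher and Bmp7 lower in direction. Genes called among the 10 numbered 4 higher and 1 lower, and 1 higher and 0 lower under scaling by totals alone, which put the median of all genes at −0.39, against 0.05 (log2). Leaving out 1 library gave 0 to 4 higher and 0 to 2 lower. With the replicate number as a block, 2 of the 10 were higher, Tgfb1 and Cyr61 being lost (adjusted p = 0.0562 and 0.0538). The numbers were not taken to pair the libraries: deviations from the group means correlated at −0.10, 0.10 and 0.20 for numbers 1, 2 and 3, and IR24h library 1 correlated best with sham library 3. For all genes, 1177 higher and 1037 lower became 398 and 611 under totals alone, 2073 and 1695 with DESeq2, 2690 and 2749 with IR24h library 2 as the only injured library, and 246 to 3297 and 196 to 3382 leaving out 1 library. For the 162 list genes, 34 higher and 2 lower became 17 higher under totals alone, 58 higher and 12 lower with IR24h library 2 alone, 7 lower with DESeq2, 1 lower with upper-quartile scaling or with the replicate block, and 8 to 52 higher and 0 to 24 lower leaving out 1 library. Leaving out 1 sham library gave 246 to 292 higher and 196 to 237 lower over all genes. Where a single IR24h library was used, its spread was assumed to be that of the sham libraries.

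Values that reversed were those of genes not called above, and 1 of them passed the threshold, that of Tgfbr1 without IR24h library 2 (adjusted p = 0.0292). The log2 fold change of Tgfb2 was 0.092 with upper-quartile scaling and 0.0027 without mitochondrial genes, and −0.25 to 0.29 leaving out 1 library. That of Tgfbr1 was −0.047 with the block, and −0.79 to 0.75 leaving out 1 library, the first without IR24h library 2. That of Tgfbr2 was −0.10 under totals alone, −0.046 with limma-voom and −0.038 with the block, and −0.43 to 0.51 leaving out 1 library. Under totals alone that of Wwtr1 was −0.11 and that of Id1 −0.21, and Id1 had −0.24 to 0.32 leaving out 1 library. The cause was not tested. Tgfb2, Tgfb3 and Inhba rest on fewer than 40 counts a library in both groups.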

Other observations

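Acvr1c, a type I receptor of the activin and Nodal branch that is known from fat cells, had 35 counts in IR24h library 2 and 0 in each of the other 5 libraries. It did not pass the filter on low counts and was not tested. Summed adipocyte markers were 12.4, 149 and 2.53 CPM in IR24h libraries 1, 2 and 3 and 31.4 to 64.9 CPM in sham, with Ucp1 under 0.1 CPM in each library, and their part in the Acvr1c count was not tested. Gdf7, a BMP-type ligand, had 18, 0 and 6 counts in IR24h libraries 1, 2 and 3 and 0 in all sham libraries, and was not tested either. Both were named after their values were seen.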
